A study of Mus musculus with 9 samples.

Results

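Kidneys that had gone through acute kidney injury and received siRNA-loaded milk vesicles were compared with uninjured kidneys to see how far the treated organ still was from sham tissue. The comparison is between 6 of the 9 libraries of the study, 3 a group, taken by their labels. It covers 17036 of 56923 gene identifiers, those that passed a filter on low counts (a minimum count of 10, scaled to library size, in as many libraries as a group holds). Sham mice were wild type, had surgery without ischemia-reperfusion (IR) injury and are labelled as given phosphate-buffered saline (PBS). Mice of the AKI_PTPi_mEVs group were also wild type, had acute kidney injury (AKI) and received milk-derived extracellular vesicles, membrane particles purified from milk, loaded with siRNA to PTP1B, a tyrosine phosphatase whose gene is Ptpn1. Another group, AKI_PBS, holds 3 libraries from wild-type mice with AKI that received PBS, and it shows which differences from sham both injured groups had. All 9 libraries entered the fit, so those of AKI_PBS also enter the filter, the scaling and the estimated spread. None of the libraries is from injured mice that received unloaded vesicles or a non-targeting siRNA, and what the siRNA and what the vesicle contributed cannot be told apart. The labels give no age, dose, time after injury or library batch, and do not state whether each library is a different mouse. The p-values therefore describe library-to-library spread only, which may be technical.

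Ischemia-reperfusion stops the blood flow to the kidney and then restores it, and the tubules of the outer medulla and cortex, which work hardest and store little energy, are hurt most. Surviving tubular cells lose transporters of their segment, switch on injury genes such as Havcr1 and Lcn2, and later re-enter the cell cycle to refill the tubule. PTP1B sits on the surface of the endoplasmic reticulum (ER) and removes phosphate groups from the insulin receptor and from JAK kinases, so it is known as a brake on insulin and cytokine signalling.

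Levels are given as CPM, the counts of a gene per 1000000 counts of its library, where the total is taken over the genes tested and scaled by a TMM factor. Differences are log2 fold changes from edgeR with their standard error after ±, n = 3 a group, and a gene was called where edgeR's quasi-likelihood test gave an adjusted p (Benjamini-Hochberg over all 17036 genes) under 0.05. Library totals lay between 9467851 and 11389479 counts. Defining markers of kidney were present in all libraries: Slc34a1 of the proximal tubule lay at 3555, 4142 and 4658 CPM in sham and 2837, 1968 and 3543 in AKI_PTPi_mEVs, while the adrenal gene Cyp11b1 had 0 counts in all 9 libraries. On principal component 3 of all tested genes AKI_PBS replicate 3 stood apart from the other AKI_PBS libraries (44.1 against -28.3 and -20.6), and on component 2 AKI_PTPi_mEVs replicate 2 (53.1) lay further from sham than the other treated libraries (33.9 and 33.7), so counts are also given without them.

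Ptpn1, the target of the siRNA, did not differ detectably from sham. It lay at 80.9, 90.5 and 98.8 CPM in the sham libraries and 106, 106 and 94.0 in the AKI_PTPi_mEVs libraries, ranges that overlap, for a log2 fold change of 0.18 ± 0.15 (edgeR adjusted p = 0.455, two-sided exact permutation p = 0.2, where 3 against 3 cannot go below 0.1). The AKI_PBS libraries, at 123, 148 and 170.4 CPM, were all higher than those of both other groups. No control siRNA shows how much of the level in the treated kidneys belongs to the siRNA. Of 25 protein tyrosine phosphatases tested, 2 were called higher and 0 lower, a share of 8% beside 13.2% of all genes. The 2 became 1 without AKI_PTPi_mEVs replicate 1 and 0 without AKI_PTPi_mEVs replicate 2 or 3 or sham replicate 1 or 2, while 1 was called lower without AKI_PBS replicate 1 or 3 or AKI_PTPi_mEVs replicate 1 and 2 without sham replicate 3.

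In all, 2252 of the 17036 genes (13.2%) differed from sham in the vesicle-treated injured kidney, 1266 higher (7.43%) and 986 lower (5.79%). The change was at least 2-fold for 425 of the higher and 562 of the lower genes, and the median over all genes tested was -0.01. The treated and sham libraries did not overlap for 6682 of the 17036 genes tested and for 2237 of the 2252 called. A lack of overlap between them therefore adds little to a call. The same test called 9488 genes (55.7%) in AKI_PBS against sham, 4734 higher and 4754 lower, and 8711 (51.1%) in AKI_PTPi_mEVs against AKI_PBS. Of the 2252 genes, 1509 (67%) were called in the same direction in AKI_PBS, 581 (25.8%) were not called there and 162 (7.19%) were called there in the opposite direction. Both comparisons use the same sham libraries, so these shares are a description.

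The number of genes in each class is given by the bars of calls by class. The classes are made from the calls of these same comparisons, so the medians within them partly follow from that choice and are a description. Genes higher in both injured groups had a median log2 fold change of 0.83 in AKI_PTPi_mEVs and 1.21 in AKI_PBS, and of these 776 genes 322 lay significantly nearer to sham than in AKI_PBS, 22 further away, and 432 did not pass the test between the injured groups. Genes lower in both had medians of -1.16 and -1.73, with 281 of 733 significantly nearer to sham, 17 further away and 435 that did not pass. Genes called in AKI_PTPi_mEVs alone were 377 higher, with a median of 0.65 beside 0.06 in AKI_PBS, and 204 lower, with -0.96 beside -0.11. A stricter class of 632 genes, 28.1% of those called, differed from sham and from AKI_PBS in the same direction, so that the treated kidney lay beyond both other groups: 423 higher and 209 lower.

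**Figure D1:**
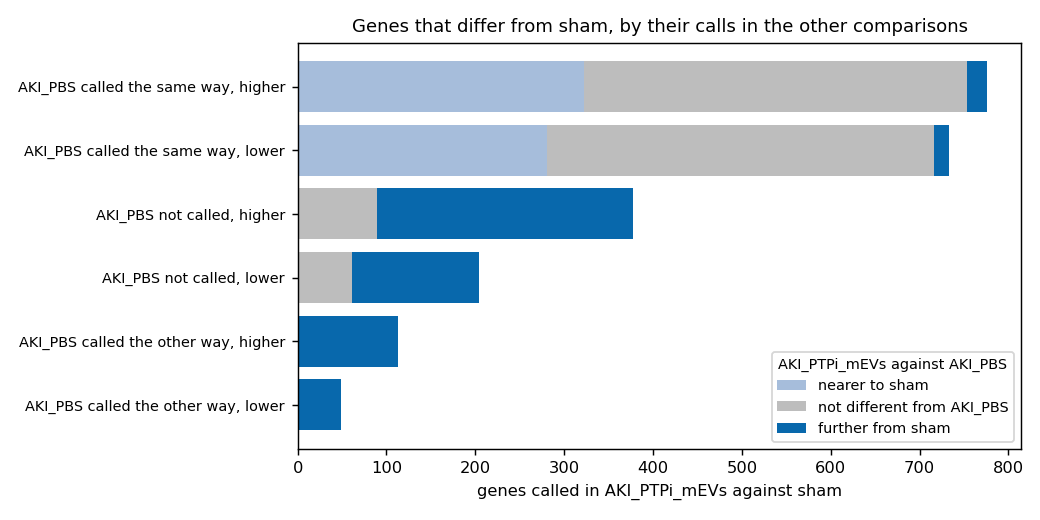
Number of genes called in AKI_PTPi_mEVs against sham (horizontal axis), split by the call of AKI_PBS against sham (rows) and by the test of AKI_PTPi_mEVs against AKI_PBS (colours). The 1509 genes shared in direction form the upper rows and are mostly nearer to sham or not different from AKI_PBS. Of the 581 genes called in AKI_PTPi_mEVs alone, 431 differ from AKI_PBS in the direction of their change from sham. All 162 opposite genes carry that colour because AKI_PBS lies on the other side of sham, so for them it does not compare distances from sham.

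Single libraries moved these counts. The total was 878 without AKI_PTPi_mEVs replicate 2, 938 without sham replicate 2, 1184 without sham replicate 1, 1487 without AKI_PTPi_mEVs replicate 1 and 3395 without AKI_PBS replicate 3. The genes called in AKI_PTPi_mEVs alone fell to 156 without AKI_PTPi_mEVs replicate 2, 186 without sham replicate 2, 238 without sham replicate 1, 312 without AKI_PTPi_mEVs replicate 1 and 382 without AKI_PTPi_mEVs replicate 3, and were 1016 without AKI_PBS replicate 3. The opposite genes numbered 40 and 56 without sham replicate 2 and AKI_PTPi_mEVs replicate 2, 57, 87, 93 and 100 without sham replicate 1, AKI_PTPi_mEVs replicate 3, sham replicate 3 and AKI_PTPi_mEVs replicate 1, and 263 without AKI_PBS replicate 3. The class beyond both groups held 213, 229, 284, 395 and 402 genes without AKI_PTPi_mEVs replicate 2, sham replicate 2, sham replicate 1, AKI_PTPi_mEVs replicate 1 and AKI_PTPi_mEVs replicate 3.

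Tubular injury genes remained far above sham. Of 30 such genes tested, 26 were called higher and 0 lower (all genes: 7.43% higher), with a median log2 fold change of 1.49 beside 2.40 in AKI_PBS. Of the 30, Timp1, Sprr2f and Fgb were under the minimum count in sham and passed the filter through a group where they were higher. Havcr1, the KIM-1 receptor with which injured proximal tubule cells take up debris, lay at 2.16, 2.23 and 2.23 CPM in sham, 585, 1350 and 375 in AKI_PTPi_mEVs and 1025, 971 and 104 in AKI_PBS. It was the largest rise of all named genes, 8.44 ± 1.11 (edgeR adjusted p = 0.00324), and the treated and the PBS libraries overlapped with a difference of 0.14 ± 0.76 (edgeR adjusted p = 0.894).

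Other injury genes lay between sham and AKI_PBS. Lcn2, the siderophore-binding protein NGAL shed by injured tubules, lay at 2.45, 1.95 and 1.83 CPM in sham and 58.0, 131 and 68.8 in AKI_PTPi_mEVs, a rise of 5.36 ± 0.40 (edgeR adjusted p = 4.33e-05), against 498, 462 and 256 in AKI_PBS. Krt20, a keratin of stressed tubular cells, rose by 5.99 ± 0.42 (edgeR adjusted p = 4.33e-05), from 2.84, 1.77 and 2.34 to 170.5, 204 and 67.6 CPM, and stood at 1203, 1029 and 798 CPM in AKI_PBS. No library of 1 group reached those of another for either gene. Cdkn1a, the cell cycle inhibitor p21, was 1.89 ± 0.24 above sham beside 5.86 ± 0.27 in AKI_PBS, and Tnfrsf12a, the TWEAK receptor, 2.22 ± 0.22 beside 3.98 ± 0.23.

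Spp1, encoding osteopontin, did not pass the test between the injured groups, and Itgb6, an integrin subunit that activates latent TGF-beta, was higher in the treated kidneys than in AKI_PBS. Spp1 lay at 1612, 1271 and 1170 CPM in sham and 4783, 9124 and 5422 in AKI_PTPi_mEVs (2.25 ± 0.25, edgeR adjusted p = 0.000241), with AKI_PBS at 2.53 ± 0.25 and a difference between the injured groups of -0.28 ± 0.24 (edgeR adjusted p = 0.338). Itgb6 lay at 101, 118 and 111 CPM in sham, 169, 134 and 149 in AKI_PBS and 252, 334 and 295 in AKI_PTPi_mEVs, 3 groups without overlap. It was the only member of the injury list beyond both groups, 0.96 ± 0.15 above AKI_PBS (edgeR adjusted p = 0.000169).

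**Figure D2:**
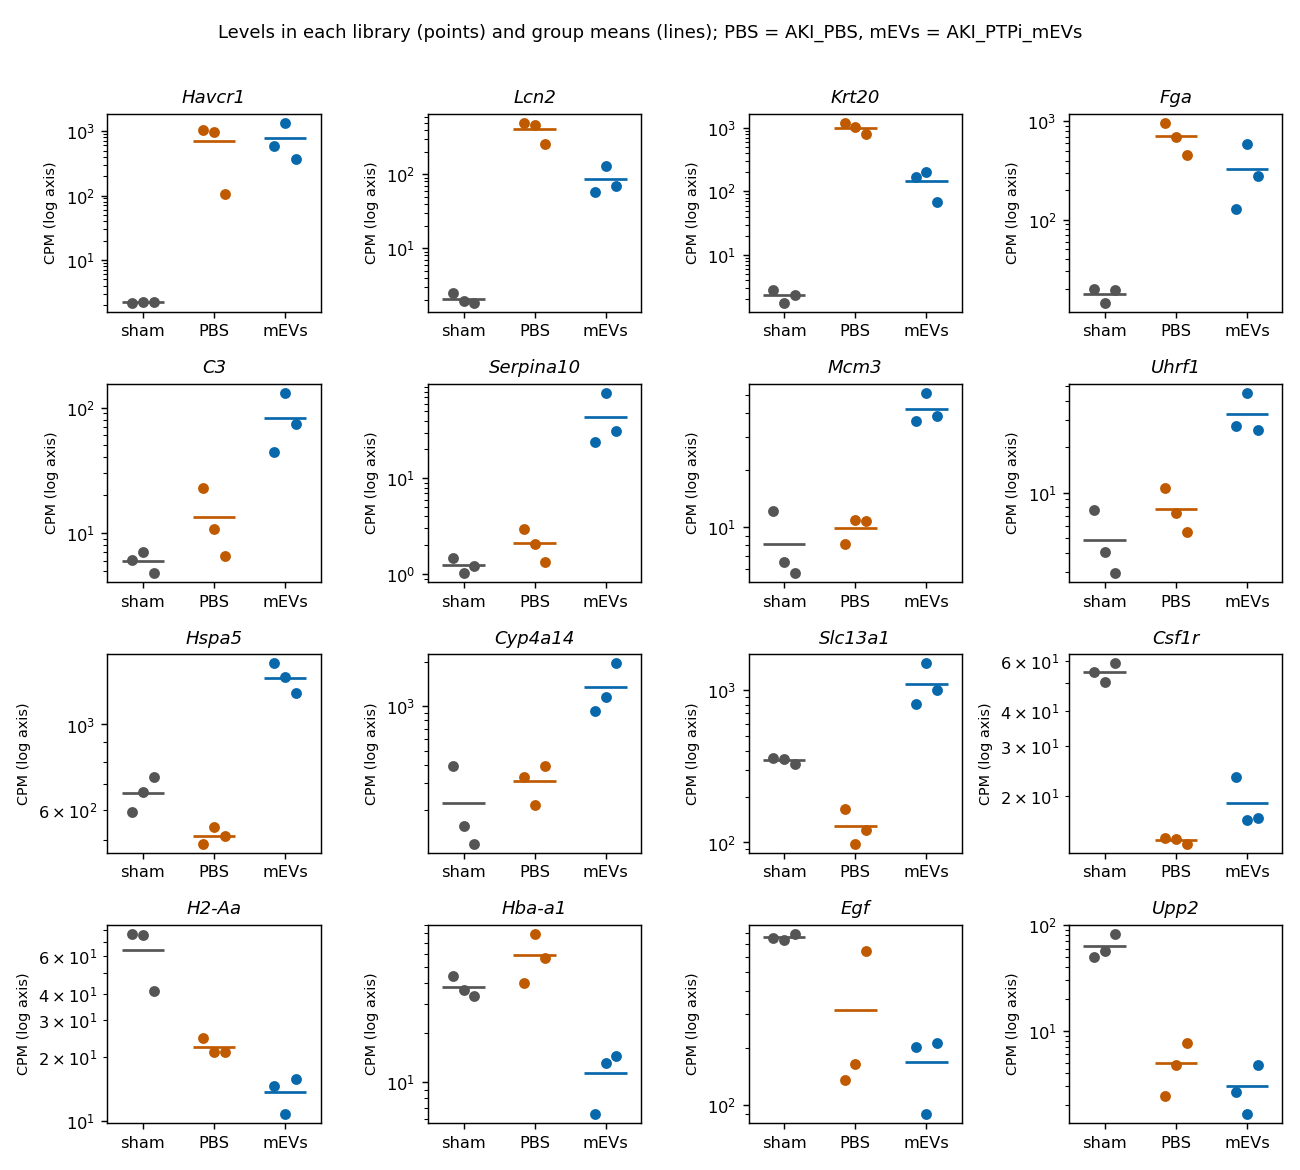
Level of 16 genes in each library (points, CPM on a log axis) with the group mean (line) for sham, AKI_PBS (PBS) and AKI_PTPi_mEVs (mEVs). The injury genes Lcn2 and Krt20 lie between sham and AKI_PBS in the treated libraries, C3, Serpina10, Mcm3, Uhrf1, Hspa5, Cyp4a14 and Slc13a1 lie above both other groups in all 3 treated libraries, and Hba-a1 lies below both.

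Transcription factors of injury and repair were higher in part. Of 20 tested, 11 were called higher and 0 lower (all genes: 7.43% higher). Their median was 0.97 beside 2.73 in AKI_PBS, where all 20 were called higher (all genes in AKI_PBS: 4734 of 17036). Atf3, Fosl1, Cebpb and Runx1 were under the minimum count in sham, so they too entered through a group where they were higher. Without sham replicate 2 or AKI_PTPi_mEVs replicate 2 the count was 6. Stat3, the factor that JAK kinases activate, lay at 88.7, 89.0 and 91.4 CPM in sham, 205, 232 and 176 in AKI_PTPi_mEVs and 416, 463 and 621 in AKI_PBS. Its rise over sham was 1.19 ± 0.17 (edgeR adjusted p = 0.00094), and the 3 groups did not overlap. Socs3, the inhibitor that STAT3 induces, rose from 3.33, 2.70 and 1.83 to 29.3, 26.8 and 18 CPM (3.23 ± 0.27, edgeR adjusted p = 4.33e-05), and the AKI_PBS libraries held 69.5, 97.8 and 105. Atf3, a stress-induced repressor, was 2.91 ± 0.50 above sham beside 5.36 ± 0.48 in AKI_PBS.

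Acute phase genes, which the liver makes in inflammation and the injured tubule also expresses, showed some of the largest differences. Of 11 tested, 7 were called higher and 0 lower (all genes: 7.43% higher). Fgb, Saa1, Saa3 and Serpina3n were under the minimum count in sham and passed the filter through a group where they were higher, so this count leans upward by construction. Fga and Fgg, which encode fibrinogen chains, rose by 4.22 ± 0.51 and 5.58 ± 0.58 (edgeR adjusted p = 0.000775 and 0.000447). Fgg lay at 13.8, 10.1 and 8.33 CPM in sham and 206, 929 and 407 in AKI_PTPi_mEVs, where replicate 2 held several times the level of replicate 1. Lrg1, a secreted glycoprotein, rose by 4.10 ± 0.39 from 5.49, 6.51 and 8.23 to 63.7, 198 and 85.5 CPM and did not differ detectably from AKI_PBS (-0.47 ± 0.33, edgeR adjusted p = 0.246). Saa1, serum amyloid A, had 0 counts in sham and 77 in the 3 treated libraries together, so that it was at least 27.1-fold higher if sham is set at 3 counts for the whole group, the limit that a count of 0 allows. Serum amyloid genes have close relatives between which the counting could split reads.

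Of 16 cytokine and chemokine genes tested, 9 were called higher and 1 lower (all genes: 7.43% and 5.79%). Ccl2, Cxcl2, Cxcl5, Lif and Il11 were under the minimum count in sham and passed the filter through a group where they were higher, so the count leans upward by construction. The 9 became 6 without sham replicate 1 or 2 or AKI_PTPi_mEVs replicate 1 or 2, and 7 without sham replicate 3. The single lower call was absent without AKI_PTPi_mEVs replicate 1, 2 or 3 or without sham replicate 2 or 3, and it was 2 without sham replicate 1. Csf1, the growth factor of macrophages, rose from 8.53, 7.53 and 6.81 to 30.5, 28.8 and 19.6 CPM (1.78 ± 0.31, edgeR adjusted p = 0.00329). Cxcl10, a chemokine for T cells, rose by 1.67 ± 0.30 and Lif, a cytokine of the interleukin-6 family, by 4.33 ± 0.68 (edgeR adjusted p = 0.00356 and 0.00208). Cxcl16 and Cx3cl1, chemokines made with a membrane anchor, rose beyond both groups by 0.76 ± 0.15 and 0.72 ± 0.15 over sham, while AKI_PBS stood at 0.13 ± 0.15 and 0.06 ± 0.14.

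Among called genes that averaged at least 2 on the log2 CPM scale, the largest falls named here were also called lower in AKI_PBS. Upp2, a uridine phosphorylase, fell by 4.39 ± 0.41 (edgeR adjusted p = 0.000166), from 50.2, 57.0 and 82.7 CPM in sham to 2.66, 1.64 and 4.73 in AKI_PTPi_mEVs, beside 2.42, 4.72 and 7.69 in AKI_PBS. Kcnt1, a sodium-activated potassium channel, lay at 35.8, 23.7 and 24.9 CPM in sham and 2.57, 0.983 and 1.21 in AKI_PTPi_mEVs, a difference of -4.11 ± 0.45 (edgeR adjusted p = 0.000285). Cyp7b1, a hydroxylase of oxysterols, fell by 2.93 ± 0.33 and C8a, a chain of complement factor C8, by 3.08 ± 0.25 (edgeR adjusted p = 0.000447 and 4.33e-05). For these 4 genes, sham lay apart from AKI_PBS as well, while its separation from AKI_PTPi_mEVs was a condition of the choice. Rnf24, Itih2 and Kif20b were among the 10 largest falls as well (-3.47 ± 0.34, -3.20 ± 0.35 and -2.79 ± 0.26).

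Nephron segment genes were lower in part. Of 33 proximal tubule genes tested, 6 were called lower and 1 higher (all genes: 5.79% lower), with a median of -0.24. In AKI_PBS the median was -1.33 and 27 were called lower, beside 4754 of all 17036 genes. Without sham replicate 2, sham replicate 3 or AKI_PTPi_mEVs replicate 2 only 2 stayed lower. Kap, an androgen-regulated protein of the proximal tubule, lay at 1355, 1302 and 1344 CPM in sham and 629.9, 679 and 687 in AKI_PTPi_mEVs (-1.0 ± 0.15, edgeR adjusted p = 0.00125), below the 704, 904 and 991 of AKI_PBS as well. Slc34a1, the phosphate transporter, did not pass (-0.57 ± 0.22, edgeR adjusted p = 0.113), though it did without the low-count filter and with the replicate number as a block. In bulk tissue, fewer cells of a segment and less RNA per cell cannot be told apart.

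In the loop of Henle 5 of 12 genes were called lower (all genes: 5.79%), with a median of -0.36 beside -2.22 in AKI_PBS. In the distal convoluted and connecting tubule 5 of 10 were called lower, with -0.67 beside -0.52. Whether segments differ from each other was not tested. Without sham replicate 1 the distal count was 3, and the loop count was 2 without sham replicate 2 or AKI_PTPi_mEVs replicate 2 and 3 without sham replicate 1, sham replicate 3 or AKI_PTPi_mEVs replicate 1. Slc12a1, the sodium-potassium-chloride carrier that loop diuretics block, fell from 632, 426 and 540.4 to 255, 153 and 204 CPM (-1.39 ± 0.27, edgeR adjusted p = 0.00728), with AKI_PBS lower still at 61.7, 97.6 and 142. Umod, uromodulin of the same segment, lay at 1339, 1360 and 1561 CPM in sham and 1461, 1344 and 1193 in AKI_PTPi_mEVs, ranges that overlap (-0.09 ± 0.17, edgeR adjusted p = 0.776).

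In the distal tubule, Pvalb, the calcium-binding parvalbumin, fell from 33.0, 29.7 and 27.9 to 6.33, 3.06 and 7.47 CPM (-2.42 ± 0.32, edgeR adjusted p = 0.000703). Slc8a1, the sodium-calcium exchanger, fell by 1.14 ± 0.15 (edgeR adjusted p = 0.000576). Klk1, tissue kallikrein, differed from both groups, at 589, 735 and 723 CPM beside 1193, 1266 and 1105 in sham and 1312, 1358 and 1451 in AKI_PBS (-0.80 ± 0.14 against sham and -1.01 ± 0.14 against AKI_PBS, edgeR adjusted p = 0.00324 and 8.47e-05). Of 10 principal cell genes of the collecting duct, 0 were called (all genes: 13.2%), and Aqp2, the vasopressin-regulated water channel, had overlapping groups (1744, 1198 and 1029 and 1460, 1482 and 1340 CPM). AKI_PBS against sham called 7 of those 10 lower and 1 higher, beside 4754 and 4734 of all 17036 genes.

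Slc13a1, the sulfate transporter of the proximal tubule, was the single proximal gene called above sham and moved against AKI_PBS. It lay at 359, 350.5 and 325 CPM in sham, 167, 98.4 and 122 in AKI_PBS and 803, 1490 and 1000 in AKI_PTPi_mEVs, without overlap. The differences from sham were 1.67 ± 0.23 in AKI_PTPi_mEVs and -1.42 ± 0.23 in AKI_PBS (edgeR adjusted p = 0.000938 and 0.000225). Slc6a4, the serotonin transporter, showed the same arrangement, at 11.2, 10.4 and 11.7, 1.99, 2.83 and 1.68 and 31.1, 33.8 and 34.3 CPM (1.58 ± 0.18 and -2.35 ± 0.21, edgeR adjusted p = 0.000328 and 2.46e-06).

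Genes of DNA replication and S phase had the most members beyond both other groups of the 54 lists. Of 25 tested, 18 were called higher and 0 lower (all genes: 7.43% higher), with a median of 1.07 beside 0.08 in AKI_PBS. Of the 25, 14 were beyond both groups. Without sham replicate 2 or AKI_PTPi_mEVs replicate 2, 10 were called. Cdc6 alone of the 25 was under the minimum count in sham. Mcm2 to Mcm7 form the ring-shaped helicase that unwinds DNA at origins. Mcm3 lay at 12.2, 6.51 and 5.69 CPM in sham, 8.12, 10.8 and 10.8 in AKI_PBS and 36.1, 51.0 and 38.4 in AKI_PTPi_mEVs, a rise of 2.36 ± 0.26 over sham (edgeR adjusted p = 0.00028) and 2.08 ± 0.26 over AKI_PBS. All 3 treated libraries were above all 6 others, and sham overlapped AKI_PBS.

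Mcm2, Mcm4 and Mcm6 rose by 1.65 ± 0.17, 1.73 ± 0.23 and 1.07 ± 0.14 over sham (edgeR adjusted p = 0.000205, 0.000706 and 0.000583). Mcm5 lay at 14.3, 7.53 and 9.24 CPM in sham, 38.0, 48.4 and 43.1 in AKI_PTPi_mEVs and 5.53, 5.23 and 5.48 in AKI_PBS, where it was lower than in sham (2.06 ± 0.22 and -0.93 ± 0.23, edgeR adjusted p = 0.000206 and 0.00396). Cdt1, which loads the helicase, rose by 1.81 ± 0.20, and Uhrf1, which carries DNA methylation through replication, by 2.73 ± 0.35 (edgeR adjusted p = 0.000241 and 0.000633). Hells, a chromatin remodeler of replicating cells outside the list, went from 4.12, 1.86 and 2.54 to 10.2, 16.1 and 10.3 CPM (2.10 ± 0.30, edgeR adjusted p = 0.00114).

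Genes of mitosis and G2 did not show this rise. Of 19 tested, 0 were called in either direction (1 lower without AKI_PBS replicate 3), beside 13.2% of all genes, with a median of -0.38 beside 0.66 in AKI_PBS. Mki67, the antigen of cycling cells, lay at 11.8, 4.46 and 3.05 CPM in sham and 2.57, 4.69 and 3.74 in AKI_PTPi_mEVs (-0.82 ± 0.48, edgeR adjusted p = 0.292). Whether the members of the S phase and the mitosis list differ from each other was not tested.

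**Figure D3:**
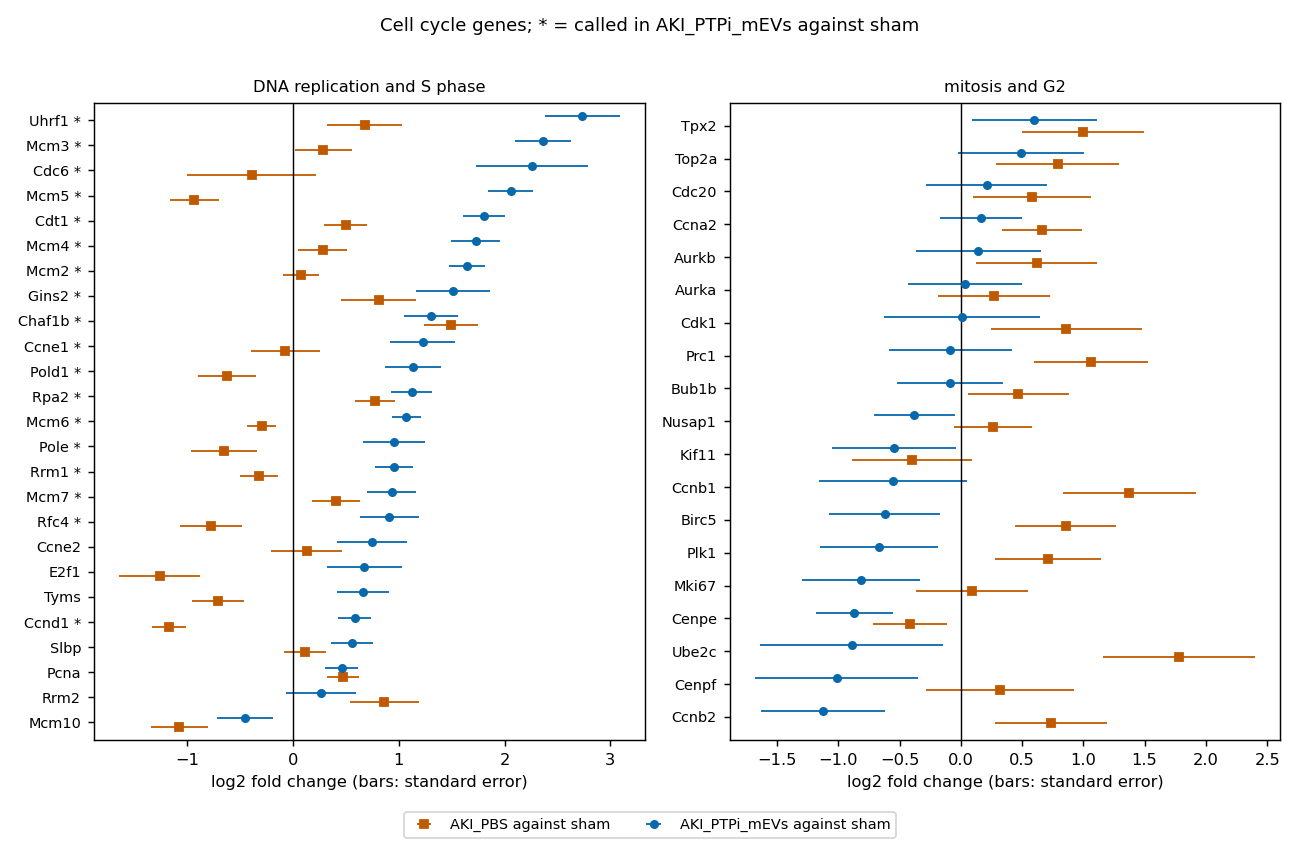
Log2 fold change against sham (horizontal axis, bars are standard errors) of each tested gene of DNA replication and S phase (left) and of mitosis and G2 (right), for AKI_PTPi_mEVs (circles) and AKI_PBS (squares); an asterisk marks a call in AKI_PTPi_mEVs. In the left panel 18 of 25 genes carry an asterisk and most circles lie right of the squares, and in the right panel 0 of 19 carry an asterisk.

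The E2F factors switch on replication genes through promoter sites, so the promoters of the list were read for the letters TTTGGCGC or TTTCCCGC on both strands, a search chosen after the values were seen. Of the 18 called genes 14 had a RefSeq promoter window (250 bases before to 50 after the start, GRCm38.p6), and 7 of these held a match (Mcm3, Mcm5, Mcm6, Mcm7, Cdc6, Cdt1 and Pold1), beside 514 of all 32851 windows (1.56%) and 3.17% of 11584 tested genes with a window. A match is a description of the letters and not a bound site. Mcm7 lost its call without sham replicate 1, 2 or 3 or AKI_PTPi_mEVs replicate 2 (log2 fold change then 0.82 to 0.98), Pold1 without sham replicate 1 or 2 or AKI_PTPi_mEVs replicate 2 (log2 fold change then 1.09 to 1.12), and Cdc6 without sham replicate 2 or AKI_PTPi_mEVs replicate 2 (log2 fold change then 1.97 to 1.98). The 250 bases before the start of Mcm5 (chr8:75109259-75109508, plus strand) and Mcm6 (chr1:128359706-128359955, minus strand) follow, 5′ to 3′ on the gene's strand with the matches in capitals, because Mcm5 rose against a fall in AKI_PBS and Mcm6 holds a pair of matches.
Mcm5: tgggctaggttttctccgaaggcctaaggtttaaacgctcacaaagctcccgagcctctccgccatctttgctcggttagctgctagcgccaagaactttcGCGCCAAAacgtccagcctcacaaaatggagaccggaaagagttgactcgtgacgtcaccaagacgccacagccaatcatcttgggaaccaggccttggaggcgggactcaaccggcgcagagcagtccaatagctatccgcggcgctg
Mcm6: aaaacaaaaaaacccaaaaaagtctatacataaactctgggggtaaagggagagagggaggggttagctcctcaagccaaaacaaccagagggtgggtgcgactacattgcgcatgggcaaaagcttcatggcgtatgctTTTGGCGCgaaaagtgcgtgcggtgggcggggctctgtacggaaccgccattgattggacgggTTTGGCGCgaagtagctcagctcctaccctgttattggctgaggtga

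ER chaperones formed the second group beyond both. Of 27 genes of ER folding and the unfolded protein response, 12 were called higher and 0 lower (all genes: 7.43% higher). The median was 0.36 beside -0.30 in AKI_PBS, and all 12 also lay above AKI_PBS. Between 8 and 14 were called higher with 1 library left out, and 1 was called lower without AKI_PBS replicate 3. Hspa5, the ER chaperone BiP, lay at 592, 668 and 728 CPM in sham, 489, 539.5 and 511 in AKI_PBS and 1443, 1329 and 1205 in AKI_PTPi_mEVs. It was 1.0 ± 0.14 above sham and 1.37 ± 0.14 above AKI_PBS (edgeR adjusted p = 0.000869 and 9.20e-06), and no groups overlapped. Pdia4, which forms disulfide bonds, lay at 123, 149.7 and 157, 95.9, 69.6 and 71.2 and 304, 278 and 287 CPM in the same order of groups (1.02 ± 0.15, edgeR adjusted p = 0.00152). Creld2, Sdf2l1, Pdia6 and Hsp90b1 rose by 1.01 ± 0.14, 1.03 ± 0.20, 0.82 ± 0.13 and 0.71 ± 0.12 (edgeR adjusted p = 0.000962, 0.00549, 0.00222 and 0.0029). Ddit3, the death-promoting factor CHOP of the PERK arm, overlapped with sham (35.4, 38.2 and 27.9 and 27.4, 35.3 and 29.9 CPM, -0.14 ± 0.17).

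Promoters of this list often held the ER stress response element, to which the cleaved factor ATF6 binds together with NF-Y. The element was read as CCAAT, any 9 bases, then CCACG, on both strands. It was found in 6 of the 10 called members with a RefSeq window (Hspa5, Hsp90b1, Pdia6, Calr, Creld2 and Derl3), in 9 of 22 members with a window, and in 39 of all 32851 windows (0.119%) or 0.173% of tested genes with a window. Calr lost its call without sham replicate 1 or 2 or AKI_PTPi_mEVs replicate 2 or 3 (log2 fold change then 0.53 to 0.56) and Derl3 without sham replicate 1 or 2 or AKI_PTPi_mEVs replicate 1 or 3 (log2 fold change then 1.26 to 1.49). The 250 bases before the start of Hspa5 (chr2:34771840-34772089, plus strand) and Hsp90b1 (chr10:86705445-86705694, minus strand), GRCm38.p6, are shown because both are abundant chaperones of the group. Capitals mark the element, which in Hsp90b1 occurs on both strands.
Hspa5: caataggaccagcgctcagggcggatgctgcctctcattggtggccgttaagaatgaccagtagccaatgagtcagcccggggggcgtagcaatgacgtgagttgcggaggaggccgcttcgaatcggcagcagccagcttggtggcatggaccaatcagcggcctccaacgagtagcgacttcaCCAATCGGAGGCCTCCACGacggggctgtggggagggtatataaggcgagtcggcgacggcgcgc
Hsp90b1: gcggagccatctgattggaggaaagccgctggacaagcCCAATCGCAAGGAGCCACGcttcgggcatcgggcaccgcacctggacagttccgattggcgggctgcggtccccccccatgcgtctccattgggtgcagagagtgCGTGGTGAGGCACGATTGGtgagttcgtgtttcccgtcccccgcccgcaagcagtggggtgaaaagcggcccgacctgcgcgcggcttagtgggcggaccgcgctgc

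Targets of ATF4, the factor of the integrated stress response, were higher in part. Of 18 tested, 8 were called higher and 0 lower (all genes: 7.43% higher). AKI_PBS against sham called 12 higher and 2 lower, beside 4734 and 4754 of all 17036 genes. Of these 18, Chac1 and Slc7a11 were under the minimum count in sham and passed the filter through a group where they were higher. Asns, asparagine synthetase, rose from 11, 6.79 and 9.86 to 46.8, 40.0 and 25.1 CPM (2.02 ± 0.26, edgeR adjusted p = 0.000688), beside 2.33 ± 0.26 in AKI_PBS. Psat1 and Atf5 rose by 1.58 ± 0.20 and 1.64 ± 0.21. Phgdh, the enzyme that opens serine synthesis, lay beyond both groups, at 118, 95.4 and 91.8 CPM against 40.7, 40.7 and 33.4 in sham and 67.1, 45.5 and 29.6 in AKI_PBS (1.41 ± 0.24, edgeR adjusted p = 0.0029).

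**Figure D4:**
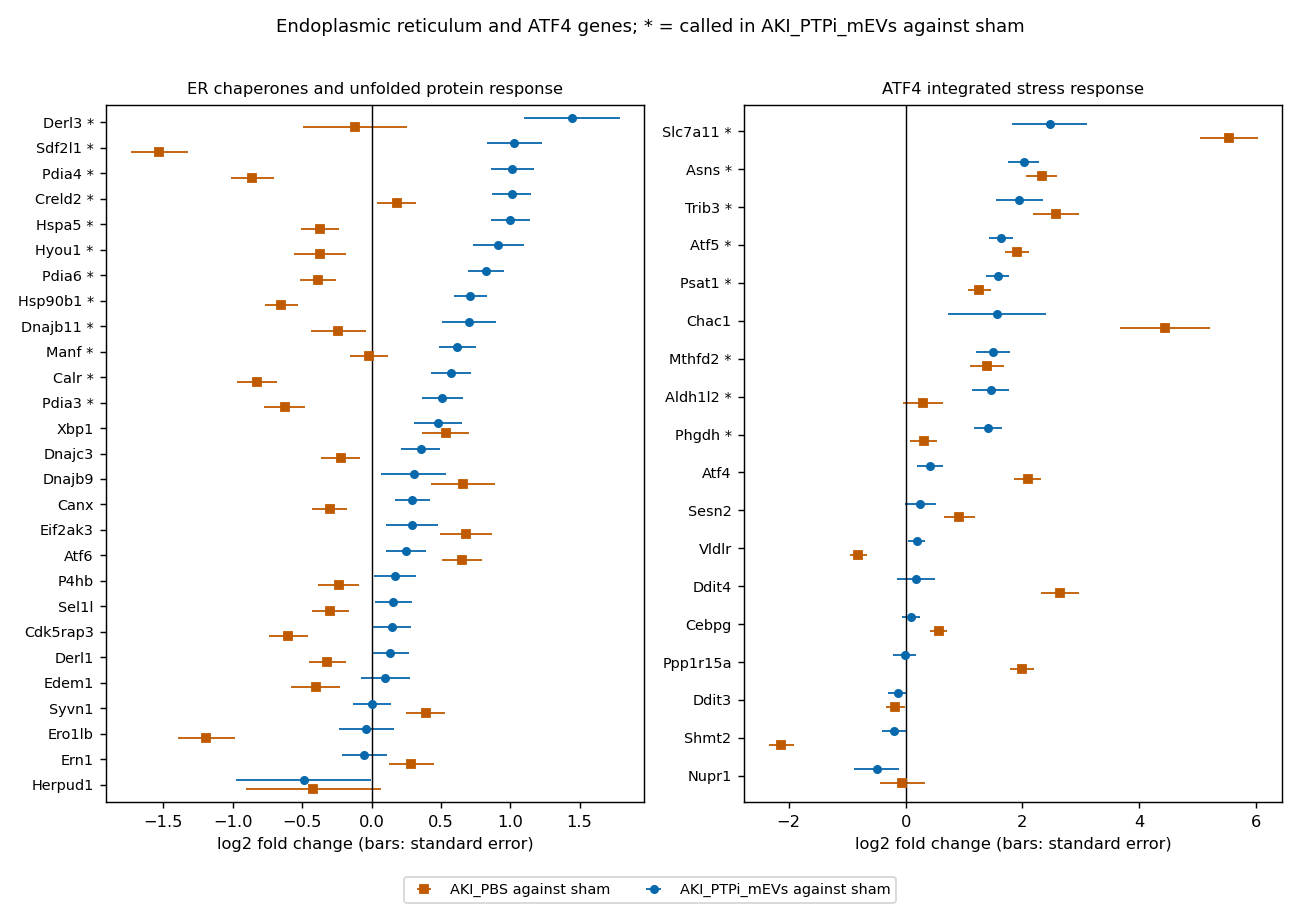
Log2 fold change against sham (horizontal axis, bars are standard errors) of each tested gene of ER chaperones and the unfolded protein response (left) and of the ATF4 response (right), for AKI_PTPi_mEVs (circles) and AKI_PBS (squares); an asterisk marks a call in AKI_PTPi_mEVs. In the left panel the 12 called genes lie right of their AKI_PBS values, while in the right panel most of the 8 called genes are raised in both groups.

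Serpina10 and C3 were among the largest rises beyond both groups. Serpina10, a plasma inhibitor of coagulation factors, lay at 1.47, 1.02 and 1.22 CPM in sham, 2.94, 2.06 and 1.32 in AKI_PBS and 23.8, 77.6 and 31.1 in AKI_PTPi_mEVs (5.14 ± 0.49 over sham and 4.38 ± 0.45 over AKI_PBS, edgeR adjusted p = 0.000167 and 1.40e-05). C3, the central complement protein, lay at 6.08, 7.07 and 4.78, 22.7, 10.8 and 6.54 and 44.3, 130.5 and 73.5 CPM in these groups (3.79 ± 0.49 over sham, edgeR adjusted p = 0.00111). For both genes all 3 treated libraries were above the other 6, which the choice of genes required, and replicate 2 was the highest. C4b, another complement component, rose by 1.64 ± 0.34 (edgeR adjusted p = 0.00858). Of 12 complement genes, 3 were called higher and 2 lower (all genes: 7.43% and 5.79%). The 2 lower calls fell to 0 without sham replicate 1, sham replicate 2 or AKI_PTPi_mEVs replicate 2. They fell to 1 without sham replicate 3 or AKI_PTPi_mEVs replicate 3.

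Aldh1a1 and Aldh1a7, aldehyde dehydrogenases of the family that makes retinoic acid, rose by 2.88 ± 0.23 and 2.90 ± 0.24 (edgeR adjusted p = 4.33e-05 and 4.33e-05). Aldh1a7 lay at 19.1, 18.4 and 14.7 CPM in sham and 110.4, 147 and 134 in AKI_PTPi_mEVs, and AKI_PBS, at 32.9, 16.9 and 18.2, did not pass against sham. Ugt1a2 and Ugt1a10, glucuronosyltransferases, rose by 3.26 ± 0.45 and 3.26 ± 0.35. The Ugt1a genes share their 3′ exons, and Aldh1a1 and Aldh1a7 are close copies, so the split of reads within each pair is uncertain.

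Genes of fatty acid metabolism were also beyond both in part. Cyp4a14, a fatty acid hydroxylase, lay at 391, 155 and 118 CPM in sham, 331, 216 and 392 in AKI_PBS and 922, 1154 and 1942 in AKI_PTPi_mEVs (2.6 ± 0.45, edgeR adjusted p = 0.00464), with the sham libraries themselves spread widely. Over the whole list of fatty acid oxidation and peroxisome genes, 6 of 25 were called higher and 1 lower (all genes: 7.43% and 5.79%). The median was 0.34. The 6 became 2 without sham replicate 2 or AKI_PTPi_mEVs replicate 3 and 3 without sham replicate 1 or 3, and the lower call was absent without sham replicate 2 or 3 or AKI_PTPi_mEVs replicate 1 or 2.

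Ribosome biogenesis genes were higher in part. Of 20 ribosome biogenesis genes, 12 were called higher and 0 lower (median 0.58, AKI_PBS 0.59), beside 7.43% of all genes higher. The 12 became 4 without AKI_PTPi_mEVs replicate 2, 5 without sham replicate 1 or 2 and 7 without AKI_PTPi_mEVs replicate 1. Nop58, a core protein of box C/D particles that methylate ribosomal RNA, rose from 36.5, 31.9 and 35.0 to 76.4, 95 and 62.6 CPM (1.18 ± 0.16, edgeR adjusted p = 0.000752). Of 12 metallothionein and iron handling genes, 4 were called higher and 1 lower (all genes: 7.43% and 5.79%), with 2 above and 1 below both other groups. Slc40a1, the iron exporter ferroportin, rose by 1.11 ± 0.14 and Tfrc, the transferrin receptor, by 1.11 ± 0.23 (edgeR adjusted p = 0.000491 and 0.00836), with AKI_PBS at -0.23 ± 0.14 and 0.05 ± 0.23. Hmox1, heme oxygenase 1, rose by 1.70 ± 0.23 beside 2.85 ± 0.23 in AKI_PBS. Of 25 NRF2, glutathione and ferroptosis genes, 11 were higher and 2 lower (all genes: 7.43% and 5.79%). Slc7a11 and Gsta1 of this list were under the minimum count in sham and passed the filter through a group where they were higher. The 11 became 5 without AKI_PTPi_mEVs replicate 2 and 7 without sham replicate 2, and the 2 became 0 without sham replicate 2 and 1 without sham replicate 1 or 3 or AKI_PTPi_mEVs replicate 1 or 2.

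**Figure D5:**
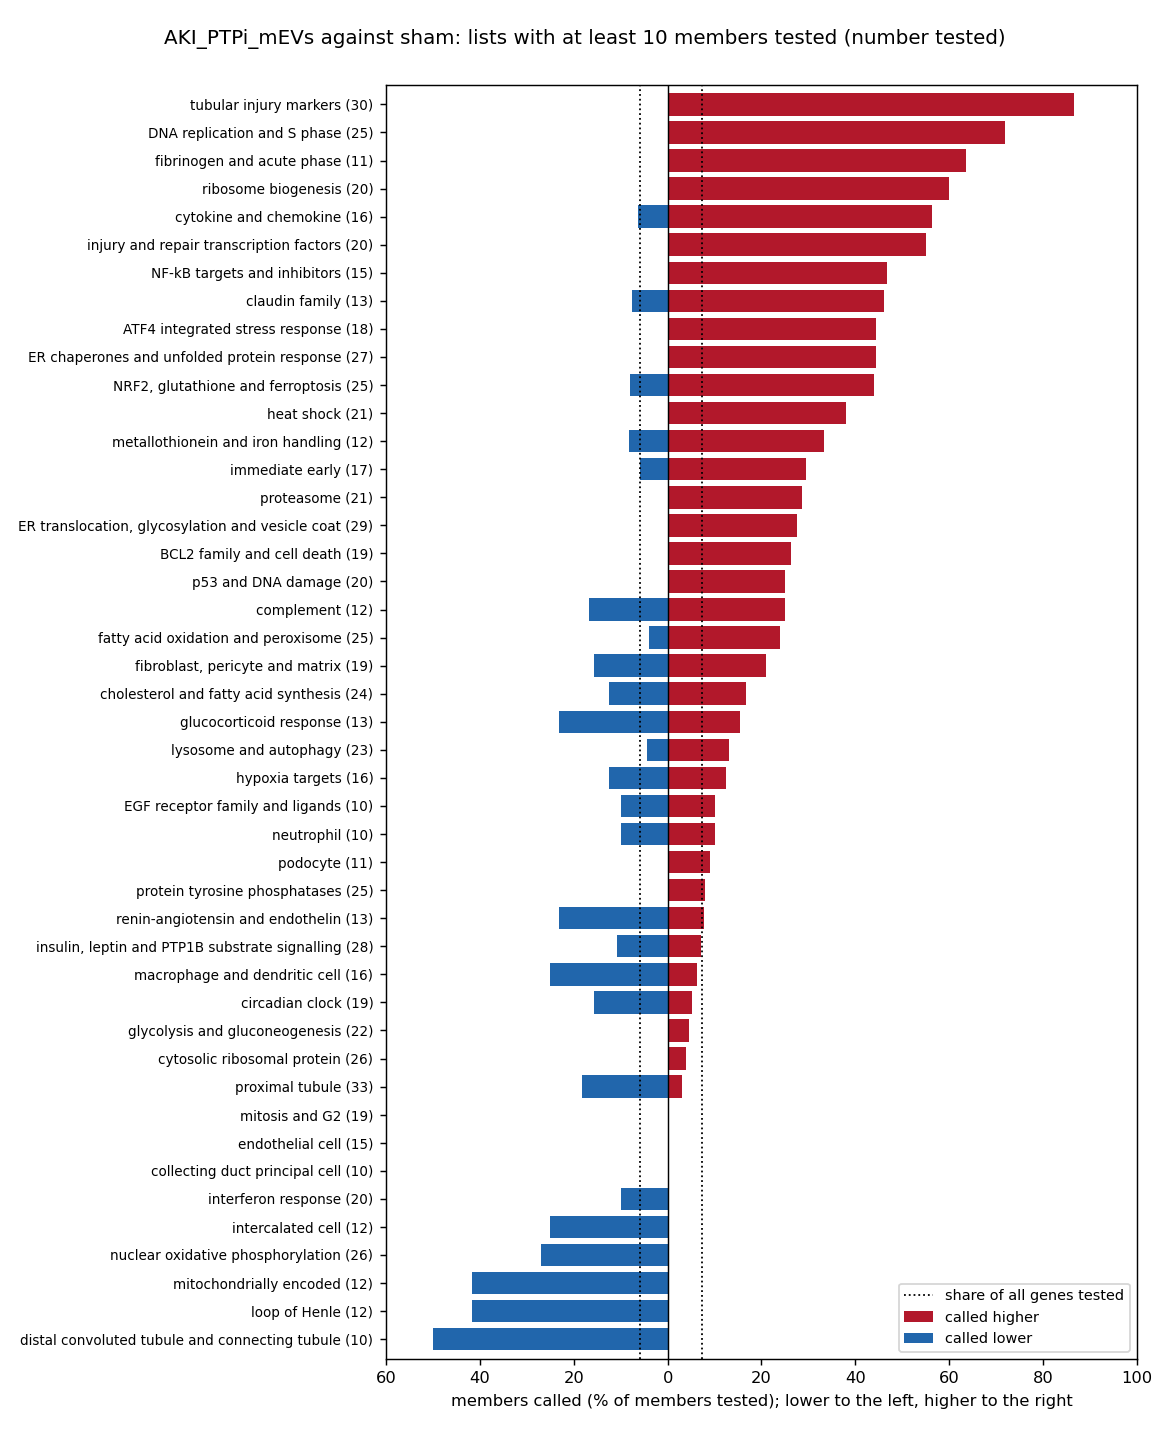
Share of the tested members of each gene list with at least 10 tested that was called in AKI_PTPi_mEVs against sham, higher to the right and lower to the left (percent); dotted lines give the share of all genes, 7.43% higher and 5.79% lower. Tubular injury and S phase genes reach 86.7% and 72% higher, and among these lists of at least 10 tested members the distal convoluted and connecting tubule list has the largest lower share, 50%.

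Macrophage and dendritic cell genes were split. Of 16 tested, 4 were called lower and 1 higher (all genes: 5.79% and 7.43%), the same with any 1 library left out. Cx3cr1 of this list was under the minimum count in sham, and Adgre1 and Clec10a were under it in AKI_PTPi_mEVs. Csf1r, the receptor for Csf1 on macrophages, lay at 54.5, 50.5 and 58.6 CPM in sham, 23.3, 16.5 and 16.7 in AKI_PTPi_mEVs and 14.2, 14.2 and 13.6 in AKI_PBS (-1.53 ± 0.16, edgeR adjusted p = 0.000206). H2-Aa, a chain of MHC class II, fell by 2.23 ± 0.23 to 14.7, 10.8 and 15.8 CPM, below AKI_PBS (24.6, 21.3 and 21.1) and sham (76.7, 75.8 and 41.1). Cd74, its invariant chain, fell by 1.51 ± 0.26 and H2-Ab1 by 1.0 ± 0.19. Cd68, a lysosomal protein of phagocytes that stressed tubules can also carry, rose from 8.53, 7.44 and 4.47 to 20.1, 20.9 and 19.6 CPM (1.56 ± 0.31, edgeR adjusted p = 0.0074). Adgre1, which encodes the F4/80 antigen, had overlapping groups (2.06, 2.23 and 1.02 and 2.02, 0.983 and 0.769 CPM).

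Genes of other cell types differed between the groups in part. The summed level of 8 red blood cell genes lay at 66.3 to 92.6 CPM in AKI_PTPi_mEVs and 156 to 194 in sham, with AKI_PBS at 125 to 269. Hba-a1, a hemoglobin chain, fell from 44.0, 36.2 and 33.5 to 6.42, 13.0 and 14.5 CPM (-1.75 ± 0.30, edgeR adjusted p = 0.00302) and lay below AKI_PBS too; the hemoglobin genes are near-identical copies. Of 7 red cell genes tested, 5 were lower (all genes: 5.79%). Slc4a1, among these 5 and among the 8 summed genes, is also on the list of intercalated cells of the kidney. Hbb-bt was under the minimum count in AKI_PTPi_mEVs. The 5 became 2 without sham replicate 1 or AKI_PTPi_mEVs replicate 2 and 3 without sham replicate 2 or 3 or AKI_PTPi_mEVs replicate 1. The 15 lymphocyte genes summed to 6.66 to 11.3 CPM against 16.3 to 24.3 in sham, and 1 of 3 tested was called lower (all genes: 5.79%). The 9 adipocyte genes summed to 18.7 to 51.1 against 76.7 to 116 in sham and 52.2 to 88.8 in AKI_PBS. Only 1 of 7 tested adipocyte genes was called, lower, a share of 14.3% beside 13.2% of all genes called. The count was 0 without any 1 AKI_PTPi_mEVs library or sham replicate 1 or 2. Adipoq and Ucp1 were under the minimum count in AKI_PTPi_mEVs. Plin1, an adipocyte marker, overlapped between sham and AKI_PTPi_mEVs, while Adipoq was lower in all treated libraries. The 15 endothelial genes overlapped (572 to 873 and 746 to 980) and 0 of them were called (all genes: 13.2%), with a list median of -0.45. Up to 6 were lower under another setting, among them Kdr and Ehd3 with DESeq2 and without the low-count filter, and 1 was lower without any 1 of the AKI_PBS libraries, AKI_PTPi_mEVs replicate 1 or sham replicate 3. The 17 neutrophil genes summed to 64.0 to 137 CPM against 9.95 to 14.5 in sham, but the tubular injury gene Lcn2 made up most of the treated sum. Of 10 tested, 1 was called higher (Lcn2) and 1 lower (Hdc), beside 7.43% and 5.79% of all genes. Of these 10, 8 were under the minimum count in sham and passed the filter through a group where they were higher. The neutrophil-defining S100a8 had 2, 1 and 2 counts in the treated libraries and 0 in sham. The part of blood, fat or leukocyte content in the differences of other genes was not tested.

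Irs2, Angptl7, Hdc, Per1, Cirbp and Klf9 lay below both other groups. Irs2, an adaptor of the insulin receptor, lay at 21.7, 26.5 and 41.6 CPM in sham, 37.3, 59.2 and 64.6 in AKI_PBS and 9.91, 7.86 and 13.4 in AKI_PTPi_mEVs (-1.53 ± 0.28 against sham, 0.84 ± 0.26 in AKI_PBS, edgeR adjusted p = 0.0049 and 0.0158). Of 28 genes of insulin, leptin and PTP1B substrate signalling, 2 were higher and 3 lower, 17.9% beside 13.2% of all genes, and the lower count was 1 without sham replicate 1 or AKI_PTPi_mEVs replicate 2 and 5 without AKI_PBS replicate 3. Angptl7, a secreted glycoprotein, fell by 1.62 ± 0.26 and Hdc, which makes histamine, by 1.17 ± 0.25 (edgeR adjusted p = 0.00222 and 0.00949), while both rose in AKI_PBS (1.22 ± 0.25 and 2.35 ± 0.22). Hdc stood at 3.49, 2.73 and 4.07 CPM in the treated libraries, 9.11, 6.33 and 7.72 in sham and 30.2, 48.3 and 39.8 in AKI_PBS.

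Per1, a clock gene that glucocorticoids also induce, lay at 85.2, 68.4 and 83.4 CPM in sham, 218, 294 and 296 in AKI_PBS and 45.7, 29.3 and 45.2 in AKI_PTPi_mEVs, without overlap (-0.98 ± 0.19, edgeR adjusted p = 0.00582). Cirbp, an RNA-binding protein induced by cold, and Klf9, a glucocorticoid target, fell by 0.79 ± 0.15 and 0.85 ± 0.18 and were higher than sham in AKI_PBS (2.25 ± 0.15 and 0.79 ± 0.17). Of 19 clock genes, 1 was higher and 3 lower (all genes: 7.43% and 5.79%), 1 lay below both groups, and 1 was lower without sham replicate 2 or AKI_PTPi_mEVs replicate 2. Npas2 of this list was under the minimum count in sham and passed the filter through a group where it was higher. The hour at which tissue was taken is not given in the labels, and its part in these values was not tested. The clock list was read for CACGTG and TTATGCAA in its promoters, found in 5 and 1 of 16 windows beside 7.15% and 0.743% of all windows and 11.3% and 0.768% of tested genes with a window.

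Respiratory chain genes were lower in part. Of 26 nuclear genes of oxidative phosphorylation, 7 were called lower and 0 higher (all genes: 5.79% and 7.43%), with a median of -0.04. AKI_PBS against sham called 15 of these 26 lower and 0 higher, with a median of -0.39, beside 4754 lower and 4734 higher of all 17036 genes. Of 12 mitochondrially encoded genes, 5 were called lower and 0 higher (median -0.68), beside 0 lower and 2 higher in AKI_PBS (median -0.02, with the AKI_PBS counts over all genes as just given). Of these 12, mt-Atp8 was under the minimum count in AKI_PTPi_mEVs. Without sham replicate 1 or AKI_PTPi_mEVs replicate 1 the nuclear and the mitochondrial count of lower genes in AKI_PTPi_mEVs were both 0. Without AKI_PTPi_mEVs replicate 2 and without sham replicate 2 they were 0 and 1, and 0 and 2, and without AKI_PTPi_mEVs replicate 3 the nuclear count was 4. Mitochondrial transcripts made up 1.32% ± 0.0838 (SD, n = 3) of counts in AKI_PTPi_mEVs and 1.86% ± 0.377 in sham (two-sided exact permutation p = 0.1, the smallest possible). The share of the nuclear RNAs Malat1 and Neat1 was 0.327% and 0.336% (exact permutation p = 0.7). Heat shock genes had 8 of 21 called higher (all genes: 7.43%). The 8 became 2 without sham replicate 2 or AKI_PTPi_mEVs replicate 2, 3 without sham replicate 1, 4 without AKI_PTPi_mEVs replicate 1 and 5 without AKI_PTPi_mEVs replicate 3. The heat shock element GAANNTTC stood in 3 of 7 called members with a window, in 11 of all 16 members with a window and in 7.86% of all windows.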

How the data were processed

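Bulk RNA sequencing of mouse kidney was read from the deposited table of raw counts per gene (9 libraries, 3 a group). Reads were aligned with STAR and counted with HTSeq, per the submitters' processing notes, which name the build GRCh38.p14, a human one, although the identifiers are mouse Ensembl genes; no coordinates were therefore taken from the table. Strand setting, versions and filters: not given in the sources consulted. Overlapping, antisense and near-identical genes may therefore share or split reads. RNA was extracted with phenol-chloroform and 100 ng entered a Tn5-based library kit, per the labels' protocols. Of 56923 identifiers, 4850 had no symbol.

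Genes were tested with edgeR 4.0.16 in R 4.3.3 (robust quasi-likelihood fit, TMM factors, filterByExpr with a minimum count of 10, 1 mean per group over all 9 libraries, 6 residual degrees of freedom). The script was tested on simulated data with 200 changed genes. Alternatives were other size factors, other low-count filters, DESeq2 1.42.0, limma 3.58.1 (voom), fewer groups, a replicate block, a fold limit and leaving out each library. Exact permutation tests were two-sided. Motifs were searched in RefSeq promoter windows of GRCm38.p6.

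The members and gene lists were chosen with earlier results of these data known. Named genes were the 10 largest rises and 10 largest falls that were called, had no overlap between the groups and averaged 2 or more on the log2 CPM scale, the 8 largest in each direction beyond both groups, the 4 largest in each direction among opposite calls, from each of 54 lists as many as 4 genes, taken by lowest adjusted p, and a panel of kidney genes. Genes beyond both groups were taken only if all treated libraries lay apart from all sham and AKI_PBS libraries. Opposite genes were taken only if the treated libraries lay apart from sham. For genes named in these ways that lack of overlap follows from the choice. Spp1, Itgb6, Uhrf1, Sdf2l1, Cd68, Hsp90b1, Calr, Derl3, Mcm4, Mcm6, Mcm7, Pold1, Cdc6, Cx3cl1, Tfrc and Saa1 were chosen after their values were seen, as were the further genes given only as examples of an uncalled marker. With 3 libraries a group the spread between libraries, more than the counting error at these depths, sets the precision.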

Additional observations from a re-analysis of the deposited data

How the results depend on the processing

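The 2252 genes that differed between AKI_PTPi_mEVs and sham numbered between 2040 and 3259 under other size factors, low-count filters, DESeq2, limma voom, the replicate block and a fit of only the 2 groups compared. In that last fit 1538 genes were lower, against 986. Without the low-count filter 260 genes were called in opposite directions in the injured groups, against 162. With a log2 fold change of at least 1 there were 987 genes, 425 higher and 562 lower, 269 called in AKI_PTPi_mEVs alone, 25 opposite and 189 beyond both groups. Leaving out each library in turn gave 878 to 3395 genes, 488 to 1917 higher and 390 to 1478 lower, with 156 to 1016 called in AKI_PTPi_mEVs alone, 40 to 263 opposite and 213 to 941 beyond both groups; the cause was not tested.

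With the replicate number as a block 2050 genes were called. Deviations of same-numbered sham and AKI_PTPi_mEVs libraries from their group means had correlations of -0.03, -0.03 and 0.05. The labels state no pairing, and with 3 libraries a group these values cannot show whether libraries were paired. Of 192 called genes among 251 checked by name, 71 lost the call without some 1 library, 24 under another setting, and 0 changed sign, while 28 uncalled ones passed under an alternative. Slc34a1 passed with the replicate block (-0.60) and without the low-count filter (-0.56). Among uncalled genes, leaving out 1 library gave -0.038 (without sham replicate 3) to 0.362 for Aqp2, 0.0 (without AKI_PTPi_mEVs replicate 1) to 3.25 for Krt13 and -0.654 to 0.715 (without sham replicate 1) for Pf4, which stood at 0.72 with limma voom.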
